A study of Mus musculus with 24 samples.

Results

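The lysosome genes described here are a fixed list of 48 mouse gene symbols that encode lysosomal membrane proteins, lysosomal proteases, glycosidases, sulfatases, proteins of lipid handling, and the transcription factors that control such genes. They were listed by symbol, with earlier results of these data known, from the 25239 genes of a table of transcript abundance. All 48 are in the table, and 46 of them passed the filter on low values and are among the 14104 genes tested; Ctsk and Ctss, cathepsins of bone and immune cells, did not pass it and stayed under 1 TPM in every library. TPM is a transcript level scaled for transcript length and for the total of each library.

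The libraries came from 6 cell lines of small cell lung cancer (SCLC), each grown from an individual tumor of a mouse in which adenoviral Cre had deleted Rb1 and Rbl2 and had switched off Trp53 through the XTR gene trap. All lines also carry Rosa26 FlpO-ER, so that 4-hydroxytamoxifen (4-OHT) removes the trap and restores p53. Type D lines die and Type V lines stay viable after p53 restoration in the study, and 3 lines of each type were used. Lines 1, 2 and 3 of Type D are 4711-1, 4711-18 and 4716-11. For Type V, line 1 is 4711-11, line 2 is 4716-10 and line 3 is 4716-14. Each line was treated for 72 h in 4 ways, which gives 8 groups of 3 libraries and 24 libraries in all: ethanol vehicle (Control), cyclosporine A (Control + CsA), 4-OHT (Restored), and both (Restored + CsA). CsA is a drug that binds and inhibits cyclophilins. Control cells therefore share the Rb1 and Rbl2 deletions with Restored cells and differ in the p53 allele state and in exposure to 4-OHT, and the effects of 4-OHT itself cannot be told apart from those of p53.

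The lysosome is the acidic compartment in which cathepsins, glycosidases, sulfatases and lipases break down proteins, glycans and lipids delivered by endocytosis and autophagy. The related factors Tfeb, Tfe3 and Mitf bind E-box motifs in the promoters of many lysosomal genes and raise their expression when they enter the nucleus. Lysosomal β-galactosidase, encoded by Glb1, is the enzyme whose activity is stained as a mark of senescent cells, which are known for an enlarged lysosomal compartment.

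The Trp53 transcript followed the labels, with 10.5 to 15.3 TPM in the 12 libraries without 4-OHT and 181 to 253 TPM in the 12 libraries with it. TPM sums to the same total in each library, so the sequencing depth is unknown. Among markers of other cell types, 9 of 10 macrophage markers stayed at 2.23 TPM or less in every library, with Tyrobp, C1qa and C1qb at 0 throughout, and only Cd14 was higher, at 19.3 to 355 TPM. The summed macrophage list, which is mostly Cd14, ran from 204 to 284 TPM in Type D Control and from 107 to 111 TPM in Type D Restored. In Type V Control and Restored it ran from 36.3 to 143 and 75.0 to 153 TPM. Its part in the results was not tested. The summed fibroblast markers, 7 genes, ran from 0.634 to 1.34 TPM in Type D Control and 227 to 500 TPM in Type V Control, and from 0.480 to 1.93 and 89.1 to 194 TPM after restoration, so that list moves with the type of line and with restoration in Type V; its part in the results was not tested. The 4 endothelial markers stayed under 1 TPM. Among 8 neuroendocrine markers of SCLC, Chga was at 0 in all libraries and Calca at 0.105 TPM or less, while Ncam1 was at 4.46 to 27.3 TPM. Insm1 and Uchl1 reached at most 3.39 and 2.66 TPM in Type D, and 49.6 and 40.9 TPM in Type V. The summed list ran from 9.63 to 20.5 TPM in Type D Control and from 33.0 to 79.3 TPM in Type V Control. So it also differs between the types, and its part in the results was not tested. These are bulk libraries, in which a change in the mix of cells and a change in the RNA of each cell cannot be told apart.

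In Control cells the levels of the 48 lysosome genes, in TPM and so per length, ran from under 1 TPM for Ctsk and Ctss to 1136 TPM for Lamp1 (means over the 6 lines). The most abundant were Lamp1, a heavily glycosylated protein of the lysosomal membrane, then Ctsd, the aspartic protease cathepsin D, with 949 TPM, and Psap, the precursor of the saposins that assist sphingolipid breakdown, with 641 TPM. Glb1 stood 25th of the 48 with 62.8 TPM. At the low end were Ctsf and Ctso, cysteine cathepsins, with 5.52 and 4.70 TPM, and Mitf with 1.48 TPM. Together the 48 genes made up 0.648% of all TPM in Type D Control and 0.813% in Type V Control. The lines differed most in Ctsh, a cysteine cathepsin with aminopeptidase activity, whose highest Control level was 144 times its lowest, and in Cln3, a membrane protein mutated in Batten disease, with a ratio of 26.5. They differed least in Fuca1, the α-L-fucosidase, at 38.8 to 44.5 TPM, a ratio of 1.15. Over the 46 tested members the median SD of log2(TPM + 1) over the 6 Control lines was 0.48, against 0.39 over all tested genes.

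Promoter sequence is shown for Ctsd, Tpp1 and Fuca1, the 3 members that were called higher in all 4 restoration comparisons below, and for Glb1, which was called in none. The windows are from RefSeq on build GRCm38.p6, run 5′ to 3′ on the strand of the gene from 250 bases before the annotated start to 50 bases after it, and lie at chr7:142387778-142388077, minus strand (Ctsd), chr7:105752186-105752485, minus strand (Tpp1), chr4:135920476-135920775, plus strand (Fuca1) and chr9:114400828-114401127, plus strand (Glb1). Capitals mark the E-box CACGTG in Ctsd and Glb1 and a decamer that matches the p53 half-site in Tpp1, and Fuca1 holds neither. A half-site is only a part of the full p53 response element.
Ctsd: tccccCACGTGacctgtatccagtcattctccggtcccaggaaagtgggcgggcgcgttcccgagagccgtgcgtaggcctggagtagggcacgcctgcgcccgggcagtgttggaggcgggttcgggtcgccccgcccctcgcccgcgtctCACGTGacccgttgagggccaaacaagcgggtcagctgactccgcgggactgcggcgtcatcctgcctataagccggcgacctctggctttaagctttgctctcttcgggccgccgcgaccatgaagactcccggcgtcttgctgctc
Tpp1: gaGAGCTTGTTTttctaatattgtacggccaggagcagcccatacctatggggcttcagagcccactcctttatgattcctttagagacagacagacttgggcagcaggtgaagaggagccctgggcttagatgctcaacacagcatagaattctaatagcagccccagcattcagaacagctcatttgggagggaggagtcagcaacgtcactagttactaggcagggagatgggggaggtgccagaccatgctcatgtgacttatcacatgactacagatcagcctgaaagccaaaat
Fuca1: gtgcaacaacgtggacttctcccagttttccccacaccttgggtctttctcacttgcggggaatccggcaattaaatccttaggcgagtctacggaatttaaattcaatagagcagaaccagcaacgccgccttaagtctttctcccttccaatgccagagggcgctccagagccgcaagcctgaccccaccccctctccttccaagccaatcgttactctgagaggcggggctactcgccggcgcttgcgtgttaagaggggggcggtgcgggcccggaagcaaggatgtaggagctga
Glb1: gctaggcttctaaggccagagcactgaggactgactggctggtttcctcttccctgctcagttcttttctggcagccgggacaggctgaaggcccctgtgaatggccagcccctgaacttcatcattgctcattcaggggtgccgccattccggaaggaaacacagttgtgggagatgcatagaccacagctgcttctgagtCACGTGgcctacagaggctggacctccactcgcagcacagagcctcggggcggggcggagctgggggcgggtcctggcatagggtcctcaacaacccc

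A window was found for 42 of the 48 members. The E-box, searched as CACGTG, which reads the same on both strands, was in the windows of 13 of these 42 (31.0%), against 8.09% of all 27025 gene symbols with a window. The longer form GTCACGTG, searched on both strands and nested in the first, was in 10 (23.8%, against 2.55%), and TCACGTGA, also nested, in 5 (11.9%, against 1.12%). The p53 half-site was in 5 (Tpp1, Gusb, Hexa, Smpd1 and Mitf), or 11.9%, against 9.55%. Of the 8 matched members that were called higher with restoration in at least 1 comparison below, 3 held the E-box, and of the other 34, 10 did. The stretches of 30 bases around the first E-box are shown for Ctsf and Ctsl, the other carriers called higher with restoration, and for Lamp1 and Sgsh, the most abundant member and a scarce one, which were not called, at chr19:4855074-4855103, chr13:64370739-64370768, chr8:13159088-13159117 and chr11:119355522-119355551. The E-box begins 79, 236, 61 and 29 bases before the start used for the window in these 4 genes, and capitals mark it. The annotated Ctsl gene, on the minus strand, reaches to base 64370772, so by that end its E-box lies inside the gene. Lamp1 holds 4 copies in its window. These matches describe the letters of the windows and are no evidence of binding.
Ctsf: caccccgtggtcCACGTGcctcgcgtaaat
Ctsl: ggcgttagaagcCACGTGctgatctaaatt
Lamp1: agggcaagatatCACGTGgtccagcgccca
Sgsh: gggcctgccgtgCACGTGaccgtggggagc

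To ask how p53 restoration changed these genes, Restored was compared with Control within each type. In both types a small set of lysosomal enzymes rose, led by the proteases, and none of the 46 tested members fell past the threshold. Summed over the 48 genes, Type D lines went from 6374, 6662 and 6390 TPM in Control to 10720, 11300 and 10270 TPM in Restored (6475 ± 162 and 10760 ± 516, SD, n = 3), and Type V lines from 8032, 7049 and 9312 to 13150, 12590 and 10750 TPM (8131 ± 1135 and 12160 ± 1252). All 6 lines were higher after restoration, and the ranges of the groups did not overlap in either type. A large part of this rise was Ctsd alone, with means of 799.7 and then 2811 TPM in Type D and 1098 and then 2902 TPM in Type V. In Type V line 3, Ctsd went from 1405 to 2834 TPM, which is nearly the whole rise of the sum in that line. The rise of the summed TPM was uneven over the roles. Mean protease sums in Control and Restored were 1984 and 4930 TPM for Type D, and 2164 and 4435 TPM for Type V. Those of the sulfatases were 146 and 149 TPM, and 235 and 299 TPM. Much of the protease rise is that of Ctsd, and the medians per gene did not show this contrast. In Type D the median change in log2(TPM + 1) was 0.48 for proteases, 0.52 for glycosidases, 0.47 for membrane proteins and 0.38 for sulfatases. The Type V medians of these roles were 0.40, 0.37, 0.34 and 0.46, with the sulfatases above the proteases.

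Each gene was tested with limma on log2(TPM + 1) over all 24 libraries, with Benjamini-Hochberg adjustment over the 14104 genes, and called when the adjusted p was under 0.05 and the change at least 1 log2. The errors given with log2 changes are standard errors of that fit, and the p-values measure the spread between cell lines within groups, pooled over the 8 groups. The same 6 lines recur in these groups, and this fit treats their 24 libraries as independent. In Type D, 7 of 46 members were called higher, where 4.49% of all tested genes were, and 0 lower, where 2.44% were (16 members had an unadjusted p under 0.05); the count of 7 was 3 without line 1, 3 without line 2 and 4 without line 3. In Type V, 6 were called higher, against 3.39%, and 0 lower, against 1.9% (12 members had an unadjusted p under 0.05). The median change of the members was 0.45 in Type D and 0.33 in Type V, and that of all tested genes 0.075 and 0.047. In Type D, 35 of 46 members were higher in all 3 lines and 6 lower in all 3, where 39.2% and 26.1% of all tested genes were. In Type V the counts were 23 and 2, against 32.4% and 25.3%. The lines of Type V were less alike: the median change of the members was 0.35, 0.69 and 0.039 in lines 1, 2 and 3, against 0.398, 0.49 and 0.43 in those of Type D.

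The 4 libraries of a line share its own levels, and a fit with the cell line as a block compares each line with itself. With the block, 29 members rose and 4 fell at any size in Type D (27.6% and 17.6% of all tested genes), where 11 rose and 0 fell without it (7.82% and 5.05%). In Type V 19 rose and 1 fell (22.8% and 17.8%), where 8 rose and 0 fell without it (5.38% and 4.57%). At the threshold of 1 log2 the block gave 8 members higher in Type D (7.05% of all tested genes) and 6 in Type V (5.74%).

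**Figure D1:**
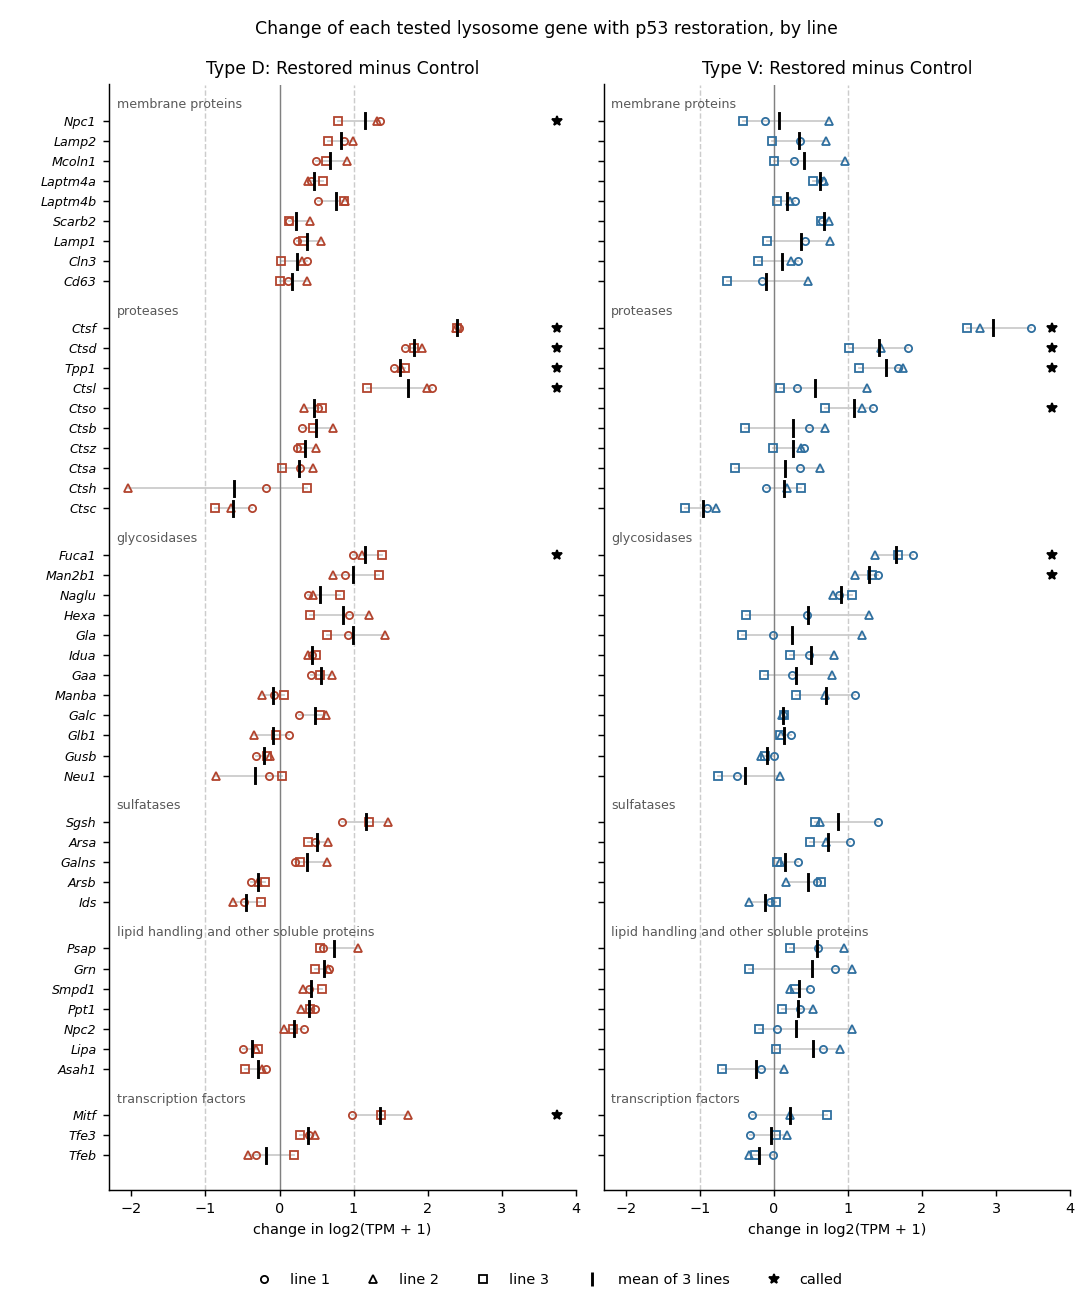
Change of the 46 tested lysosome genes with p53 restoration, as the difference in log2(TPM + 1) between Restored and Control (horizontal axis) of each line (open symbols), with the mean of the 3 lines (black bar) and a star where the gene was called; dashed lines mark 1 log2. Most Type D symbols lie right of 0 in all 3 lines, Ctsf lies farthest right in both types, and Glb1 lies close to 0.

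Among the proteases, 4 of 10 tested were called higher in each type. Ctsd, cathepsin D, the main aspartic protease of the lysosome, was at 885, 778 and 737 TPM in lines 1, 2 and 3 of Type D Control and reached 2884, 2967 and 2582 TPM in Restored. The levels in Type V were 931, 959 and 1405 TPM before and 3271, 2601 and 2834 TPM after restoration. Every Restored library stood above every Control library, with a change of 1.81 ± 0.19 (SE, adjusted p = 2.7e-06) in Type D and 1.42 ± 0.19 (SE, adjusted p = 6.25e-05) in Type V. Tpp1, a serine protease that removes tripeptides and is mutated in a childhood neuronal ceroid lipofuscinosis, was at 82.4, 101 and 71.9 TPM in Type D Control and 243, 317 and 235 TPM in Restored. Type V libraries held 127, 81.6 and 115 TPM before and 406, 274 and 256 TPM after restoration. Its groups did not overlap in either type, and its changes of 1.63 ± 0.25 (SE, adjusted p = 0.000159) and 1.52 ± 0.25 (SE, adjusted p = 0.00043) were close to each other.

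Ctsf, cathepsin F, made the largest changes among the members, from low levels that differed among the lines. It was at 2.15, 6.34 and 12.3 TPM in Type D Control and 15.8, 37.2 and 68.9 TPM in Restored. The levels in Type V were 6.17, 4.23 and 1.97 TPM and then 78.3, 35 and 17.2 TPM. The lines kept their order in each type and each of them rose, by 2.42, 2.38 and 2.4 log2 in Type D and 3.47, 2.78 and 2.61 log2 in Type V. The fit gave 2.397 ± 0.72 (SE, adjusted p = 0.0345) and 2.96 ± 0.72 (SE, adjusted p = 0.0119). The call in Type D was lost without Type D line 1, 2 or 3 or without Type V line 2, and that in Type V without Type V line 1 or 2, at changes of 2.39 to 2.41 and 2.698 to 3.04. Ctsl, cathepsin L, a cysteine endopeptidase, was at 316, 160.4 and 350.2 TPM in Type D Control and 1319, 641 and 793 TPM in Restored. For Type V the levels were 163, 155 and 356 TPM and then 202, 373 and 376 TPM. Each Type V line rose, by 0.31, 1.26 and 0.077 log2. The Type D groups did not overlap and the Type V groups did, with changes of 1.74 ± 0.41 (SE, adjusted p = 0.00731) and 0.55 ± 0.41 (SE, adjusted p = 0.498); the Type D call was lost without Type D line 1 or 2 (1.58 and 1.62). Ctso, cathepsin O, was called in Type V alone, where it went from 3.63, 3.64 and 7.21 TPM to 10.7, 9.63 and 12.3 TPM. In Type D it went from 2.65, 5.7 and 5.36 to 4.21, 7.41 and 8.44 TPM. Each line rose, the Type D groups overlapped, and the changes were 1.08 ± 0.29 (SE, adjusted p = 0.0229) and 0.47 ± 0.29 (adjusted p = 0.35, and 0.0112 with the block); the Type V call was lost without Type V line 1 or 2 (0.94 and 1.02).

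Of the other tested proteases, Ctsa, Ctsb and Ctsz had changes of 0.26 to 0.49 in Type D and 0.15 to 0.26 in Type V, none of them called. Ctsc, the dipeptidyl peptidase that activates granule serine proteases, went the other way in all 6 lines, from 16.3, 28.2 and 32 to 12.3, 17.6 and 17.1 TPM in Type D, while Type V lines went from 5.51, 12.3 and 13.2 to 2.48, 6.72 and 5.2 TPM. Its changes of -0.63 ± 0.42 (adjusted p = 0.382) and -0.96 ± 0.42 (adjusted p = 0.17) passed only with the block, at adjusted p = 0.0038 and 0.00017. Ctsh was the least uniform member: Type D line 2 went from 442 TPM to 106 TPM, while the other 5 lines moved by 0.37 log2 or less in either direction.

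Among the glycosidases, Fuca1, the enzyme that removes fucose from glycoproteins, was at 38.8, 39.6 and 39.9 TPM in Type D Control and 78, 86.6 and 106 TPM in Restored. For Type V the levels were 40, 44.5 and 41 TPM and then 149.7, 117 and 133 TPM. The Control lines lay close together and every Restored library was higher, with changes of 1.16 ± 0.14 (SE, adjusted p = 1.09e-05) and 1.64 ± 0.14 (SE, adjusted p = 2.76e-07). Man2b1, the lysosomal α-mannosidase, was at 61.8, 70.6 and 61.4 TPM in Type D Control and 116, 118 and 157 TPM in Restored. The Type V lines had 103, 62.7 and 92.3 TPM and 274, 136 and 233 TPM. It rose in all 6 lines without overlap between groups, by 0.99 ± 0.26 (SE, adjusted p = 0.0141) in Type D, just under the fold threshold, and 1.28 ± 0.26 (SE, adjusted p = 0.00261) in Type V. The 12 glycosidases had a median change of 0.52 in Type D and 0.37 in Type V. With the block, 8 of them rose and 1 fell in Type D, and 5 rose and none fell in Type V, where 27.6% and 17.6% of all tested genes did in Type D and 22.8% and 17.8% in Type V.

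Glb1, the gene of the senescence-associated galactosidase, did not follow them. It was at 47.7, 72.2 and 55.8 TPM in Type D Control and 52.4, 56.7 and 54 TPM in Restored. The Type V lines had 57.2, 60.2 and 83.8 TPM and 67.3, 64.1 and 89 TPM. The groups overlapped in both types. The change was -0.086 ± 0.195 in Type D (95% confidence interval -0.495 to 0.32, adjusted p = 0.877) and 0.14 ± 0.195 in Type V (-0.27 to 0.54, adjusted p = 0.79), and with the block the adjusted p was 0.497 and 0.277. All 3 Type V lines were higher, by 0.23, 0.090 and 0.085 log2, while the Type D lines moved by 0.13, -0.34 and -0.046 log2; without Type D line 2 the Type D change was 0.042. Both intervals exclude a rise of 1 log2, so a rise of that size in this transcript was not seen in either type. The difference of the change between the types was -0.22 ± 0.28 (adjusted p = 1).

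None of the 5 sulfatases was called in either type. Sgsh, the sulfamidase of heparan sulfate breakdown, had the largest change, at 5.08, 2.22 and 4.5 TPM in Type D Control and 9.9, 7.82 and 11.8 TPM in Restored, and 10.1, 5.92 and 6.62 TPM and then 28.4, 9.65 and 10.2 TPM in Type V. It was higher in all 6 lines, with a change of 1.17 ± 0.42 (adjusted p = 0.0795) in Type D, where it was called with the block (adjusted p = 1.86e-05), and 0.86 ± 0.42 (adjusted p = 0.243) in Type V. Arsa, arylsulfatase A, was also higher in all 6 lines, by 0.51 ± 0.25 (adjusted p = 0.205) in Type D and 0.73 ± 0.25 (adjusted p = 0.0662) in Type V, and passed with the block (adjusted p = 0.00143 and 8.02e-05). The soluble proteins of lipid handling were not called either. Psap passed without the fold threshold in Type D, at 0.73 ± 0.23 (SE, adjusted p = 0.0375). Of the other 6 of that role, changes ran from -0.37 to 0.602 in Type D and -0.25 to 0.53 in Type V.

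**Figure D2:**
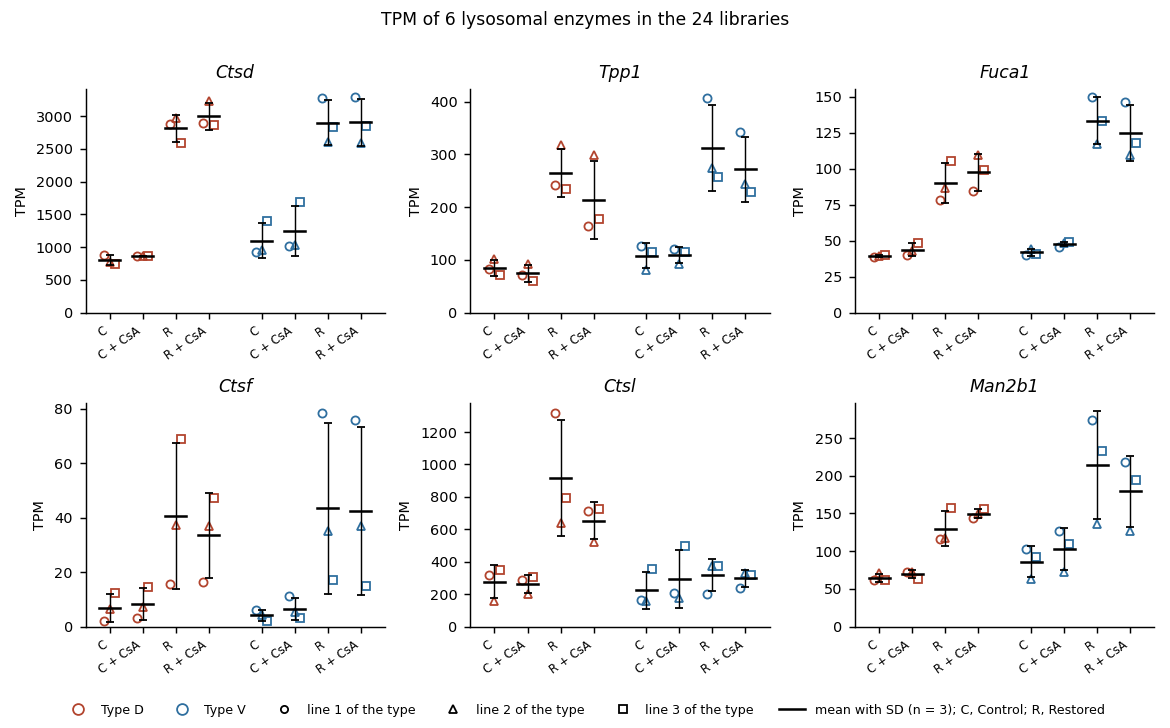
TPM (vertical axis, from 0) of Ctsd, Tpp1, Fuca1, Ctsf, Ctsl and Man2b1 in each library of the 8 groups, with the mean and SD of 3 lines; C is Control and R is Restored. Ctsd, Tpp1 and Fuca1 rise in every line of both types with or without CsA. Without CsA, Ctsl also rises in every line, but its Control and Restored groups overlap in Type V.

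Among the 9 membrane proteins, Npc1 was the only one called, and only in Type D. Npc1, which moves cholesterol out of the lysosome, was at 24.2, 14.9 and 23.6 TPM in Type D Control and 63.7, 38.4 and 41.6 TPM in Restored, without overlap. Type V held 39.2, 21.3 and 26.6 TPM and then 36, 36.2 and 19.7 TPM, with 1 line higher and 2 lower. Its changes were 1.16 ± 0.33 (SE, adjusted p = 0.0264) and 0.069 ± 0.33 (SE, adjusted p = 0.965), and the Type D call was lost without any 1 of the 3 Type D lines (1.05 to 1.34). Lamp2, the partner of Lamp1 and the receptor of chaperone-mediated autophagy in an isoform, was at 50.3, 87.2 and 74.4 TPM in Type D Control and 92.5, 174 and 117 TPM in Restored. Type V libraries held 164, 146 and 257 TPM before and 209, 237 and 251 TPM after restoration. Each Type D line rose and the groups did not overlap, at 0.83 ± 0.26 (SE, adjusted p = 0.0386), while the Type V groups overlapped, at 0.34 ± 0.26 (SE, adjusted p = 0.511).

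Lamp1 was at 941, 767 and 1110 TPM in Type D Control and 1114, 1130 and 1384 TPM in Restored. The levels in Type V were 1683, 777 and 1537 TPM and then 2255, 1314 and 1442 TPM. Its 3 Type D lines were higher after restoration by 0.24, 0.56 and 0.32 log2 and 2 of 3 Type V lines were, but the spread between lines was larger and neither change passed (0.37 ± 0.32, adjusted p = 0.532, and 0.36 ± 0.32, adjusted p = 0.585; 0.121 and 0.14 with the block). Laptm4a, a small transmembrane protein of late endosomes and lysosomes, rose below the fold threshold in both types, by 0.47 ± 0.12 (SE, adjusted p = 0.0135) and 0.62 ± 0.12 (SE, adjusted p = 0.00213). Scarb2, the receptor that carries β-glucocerebrosidase to the lysosome, did so in Type V, by 0.67 ± 0.17 (SE, adjusted p = 0.0125). The other 4 (Cd63, Cln3, Laptm4b and Mcoln1) had changes of 0.16 to 0.76 in Type D and -0.11 to 0.41 in Type V.

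The transcription factors of this family did not pass the test apart from Mitf in Type D. Tfeb was at 12.3, 16 and 13.4 TPM in Type D Control and 9.68, 11.7 and 15.4 TPM in Restored. Type V libraries held 22.6, 25.7 and 29.9 TPM and then 22.5, 20.2 and 24.9 TPM. Its groups overlapped in both types, with changes of -0.18 ± 0.23 (adjusted p = 0.703) and -0.2 ± 0.23 (adjusted p = 0.706). Tfe3, the most abundant of the 3, was at 32.3, 48.4 and 34.6 TPM in Type D Control and 43.1, 67.6 and 42.1 TPM in Restored. The levels in Type V were 76.2, 69.7 and 113 TPM and then 60.5, 79 and 115 TPM. The 3 Type D lines were higher by 0.404, 0.47 and 0.28 log2, a change that passed only with the block (adjusted p = 0.482, and 0.00678 with it), and the Type V lines moved in both directions. Mitf was at 0.844, 0.37 and 1.48 TPM in Type D Control and 2.63, 3.55 and 5.43 TPM in Restored. For Type V the levels were 2.74, 0.927 and 2.49 TPM and then 2.04, 1.24 and 4.73 TPM. It rose in all 3 Type D lines from levels near 1 TPM, by 1.36 ± 0.41 (SE, adjusted p = 0.0329), while in Type V the groups overlapped (0.21 ± 0.41, adjusted p = 0.86); the Type D call was lost without any 1 of the 3 Type D lines (1.18 to 1.55). These are transcript levels, and the proteins are regulated by their place in the cell, which was not measured.

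**Figure D3:**
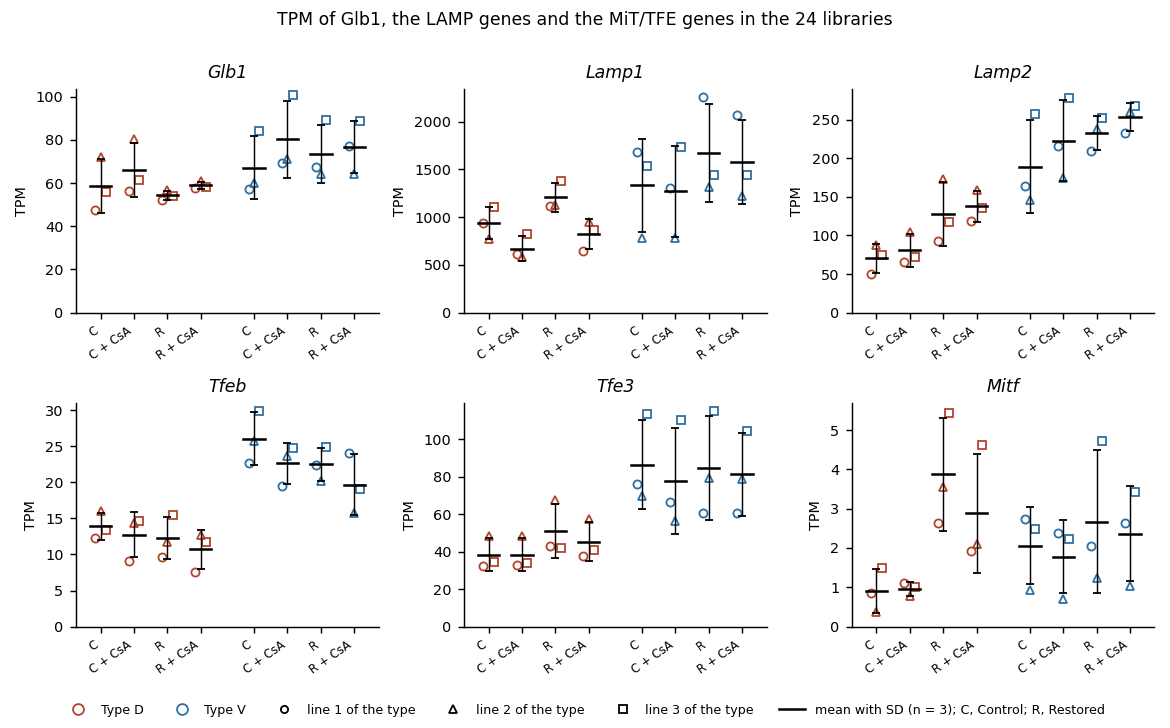
TPM (vertical axis, from 0) of Glb1, Lamp1, Lamp2, Tfeb, Tfe3 and Mitf in each library of the 8 groups, with the mean and SD of 3 lines; C is Control and R is Restored. Glb1 overlaps between Control and Restored in both types, Lamp2, Tfeb and Tfe3 are lower in Type D Control than in Type V Control, and Mitf rises in Type D.

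The change with restoration was then compared between the types as an interaction in the same fit, with the Type D change minus the Type V change. No member was called, where 0.0284% of all tested genes were, and 2 members had an unadjusted p under 0.05, Npc1 (1.09 ± 0.47) and Fuca1 (-0.48 ± 0.197). So Npc1, Ctsl, Mitf, Ctso and Man2b1, called in 1 type alone, were not shown to differ between the types by this fit. With the cell line as a block, 3 members rose more in Type D and 4 more in Type V at any size (3.3% and 2.26% of all tested genes). The 2 of these that also reached 1 log2 (1.13% of all tested genes) were Mitf, at 1.15 ± 0.29 (adjusted p = 0.0318 with the block), and Npc1, at 1.09 ± 0.29 (adjusted p = 0.0381 with the block). Laptm4b, a relative of Laptm4a, was the third on the Type D side, and Lipa, the acid lipase, Manba, the β-mannosidase, Arsb, arylsulfatase B, and Scarb2 were on the Type V side. Lipa went from 237, 141 and 136 to 168, 113 and 111 TPM in Type D, while Type V lines went from 103, 443 and 167 to 164, 821 and 171 TPM. All 3 Type D lines were lower and all 3 Type V lines higher, the third by only 0.027 log2. Ctsl missed the threshold with the block, at 1.19 ± 0.36 (adjusted p = 0.064).

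The same restoration comparison was made in the presence of CsA, between Restored + CsA and Control + CsA, which are other libraries of the same lines. Most of the leading enzymes rose there too. In Type D, 4 of 46 members were called higher (3.53% of all tested genes) and 0 lower (1.88%), and in Type V 4 higher (2.84%) and 0 lower (1.77%). The medians of the members were 0.44 and 0.16, and of all tested genes 0.094 and 0.037. Ctsd went from 867, 870.1 and 863 to 2892, 3234 and 2861 TPM in Type D, while Type V lines went from 1021, 1032 and 1694 to 3284, 2587 and 2842 TPM, without overlap, at 1.79 ± 0.19 (SE, adjusted p = 4.21e-06) and 1.25 ± 0.19 (SE, adjusted p = 0.000223). Tpp1 went from 72.3, 91.5 and 60.5 to 165, 299 and 177 TPM and from 121, 92.5 and 115 to 343, 244 and 229 TPM, at 1.47 ± 0.25 (SE, adjusted p = 0.000563) and 1.29 ± 0.25 (SE, adjusted p = 0.00201). Fuca1 went from 39.8, 43.1 and 48.7 to 84.2, 109.8 and 99 TPM and from 45.8, 48.4 and 48.9 to 147, 109.5 and 118 TPM, at 1.14 ± 0.14 (SE, adjusted p = 1.99e-05) and 1.36 ± 0.14 (SE, adjusted p = 2.91e-06). The groups of these 3 enzymes did not overlap in either type. Below 1 log2, Psap (0.73 ± 0.23, adjusted p = 0.0483) and Laptm4a (0.45 ± 0.12, adjusted p = 0.0217) rose in Type D, and Scarb2 (0.83 ± 0.17, adjusted p = 0.0029) and Laptm4a (0.401 ± 0.12, adjusted p = 0.0477) in Type V.

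Man2b1 was called in Type D under CsA, from 72.5, 72.4 and 63.4 to 144, 149.6 and 156 TPM (1.1 ± 0.26, adjusted p = 0.00887; lost without any 1 of the 3 Type D lines, at 1.01 to 1.16, and under both scalings tried), and in Type V it went from 126, 71.8 and 110 to 218, 127 and 194 TPM (0.802 ± 0.26, adjusted p = 0.0633). Ctsf was called in Type V, from 11.1, 5.32 and 3.04 to 75.8, 36.8 and 14.7 TPM (2.402 ± 0.72, adjusted p = 0.0486; lost without Type D line 2 or 3 or any 1 Type V line, at 2.27 to 2.62), and in Type D it went from 2.97, 7.09 and 14.6 to 16.4, 37 and 47.1 TPM (1.999 ± 0.72, adjusted p = 0.0979, and 2.66e-07 with the block). With the block, 8 members reached the threshold in Type D (5.91% of all tested genes): the 4 already called and Ctsf, Ctsl, Sgsh and Npc1. Ctsl went from 285, 200.1 and 308 to 713, 522 and 727 TPM there, higher in each line. At any size the block gave 26 higher and 3 lower in Type D (27.2% and 14%) and 12 higher and 2 lower in Type V (20.6% and 16.5%). In Type V it also called Ctsc lower (1 member, 2.94% of all tested genes), from 4.84, 14.7 and 10.6 to 2.44, 6.59 and 3.44 TPM (-1.07 ± 0.16, adjusted p = 8.18e-05 with the block). Between the types, no member was called under CsA (0.0142% of all tested genes, and no member at an unadjusted p under 0.05), and with the block 2 rose more in Type D at any size (3.06%), Laptm4b and Gusb, the β-glucuronidase.

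CsA itself was tested in Control cells and in Restored cells, in comparisons that share the Control or the Restored libraries with those above. No member was called with CsA in Control cells of Type D or Type V, where 0% of all tested genes were called in either, and none was called for the difference between the types (0%); at an unadjusted p under 0.05 there were 0, 1 and 0 members and 114, 54 and 25 genes of all tested. The members still leaned upward: 23 of 46 in Type D and 31 of 46 in Type V were higher in all 3 lines, where 13.7% and 16.4% of all tested genes were, with medians of 0.12 and 0.18 against -0.027 and -0.014. Hexa, the α subunit of β-hexosaminidase, had 0.36 ± 0.39 in Type D and 0.49 ± 0.39 in Type V, higher in all 6 lines and not called. Glb1 was at 56.2, 80.3 and 61.5 TPM in Type D Control + CsA and 69.1, 70.9 and 101 TPM in Type V Control + CsA. That was above Control in all 6 lines, by 0.17 ± 0.195 and 0.25 ± 0.195 (adjusted p = 1 and 1). In Type D, 3 members were below Control in all 3 lines, of which Lamp1 was farthest, at 611, 582 and 821 TPM (-0.49 ± 0.32, adjusted p = 1), and the others were Tpp1 (-0.19 ± 0.25) and Ctsb (-0.012 ± 0.28). In Type V Control + CsA, Lamp1 was at 1304, 782 and 1733 TPM. None of these changes passed the test.

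In Restored cells CsA called no member in Type D (0.0142% of all tested genes) or Type V (0%), and none was called for the difference (0%); at an unadjusted p under 0.05 there were 0 members in each, and 229, 100 and 102 genes of all tested. With the block, Gusb rose with CsA in Type D (1 member, where 0.0638% of all tested genes did), by 0.42 ± 0.077 (adjusted p = 0.0273 with the block). It was at 38.5, 67.9 and 45.7 TPM in Restored and 54.6, 88.1 and 60.7 TPM in Restored + CsA, higher in each line. Ctsd differed by 0.092 ± 0.19 in Type D and 0.001 ± 0.19 in Type V (95% confidence intervals -0.31 to 0.49 and -0.4 to 0.401). Tpp1 was lower with CsA in all 6 lines, with changes of -0.56, -0.084 and -0.403 log2 in Type D and -0.25, -0.17 and -0.16 log2 in Type V, and was not called (-0.35 ± 0.25 and -0.19 ± 0.25). Ctsl was lower in the 3 Type D lines, with changes of -0.89, -0.295 and -0.13 log2, and not called (-0.44 ± 0.41, adjusted p = 1). Lamp1 was at 644, 949.8 and 869 TPM in Type D Restored + CsA, below Restored in each line (-0.57 ± 0.32, adjusted p = 1), and at 2067, 1225 and 1444 TPM in Type V. Glb1 was at 57.6, 61 and 58 (Type D) and 77.3, 64.2 and 88.5 TPM (Type V) there. Lamp2 was at 119, 158 and 135 (Type D) and 233, 259.9 and 267 TPM (Type V), after 65.2, 105 and 72.4 (Type D) and 216, 174 and 278 TPM (Type V) in Control + CsA.

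None of the 3 factors was called in a comparison that involves CsA. Tfeb was at 9.13, 14.4 and 14.7 TPM in Type D Control + CsA and 7.64, 12.7 and 11.8 TPM in Restored + CsA, and at 19.5, 23.6 and 24.8 TPM and then 24.1, 15.8 and 19.1 TPM in Type V. Tfe3 was at 32.8, 48.4 and 33.8 TPM and then 37.8, 57.4 and 40.9 TPM in Type D and 66.5, 56.5 and 110 TPM and then 60.5, 78.7 and 105 TPM in Type V. Mitf was at 1.11, 0.773 and 0.995 TPM and then 1.93, 2.09 and 4.63 TPM in Type D, higher with restoration in each line (0.92 ± 0.41, adjusted p = 0.185, and 0.00209 with the block), and at 2.38, 0.704 and 2.24 TPM and then 2.63, 1.04 and 3.42 TPM in Type V.

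The types themselves were compared in Control and in Restored cells, between different lines, so that the line can be a block only as a random effect. Lysosome genes tended to be lower in Type D: the median difference, Type D minus Type V, was -0.39 in Control and -0.32 in Restored, against -0.12 and -0.069 over all tested genes. In Control, 3 members were called lower in Type D (4.41% of all tested genes) and 0 higher (4.42%). The 3 Type D lines all lay below the 3 Type V lines for 13 members and above them for 5, where 19.5% and 11.9% of all tested genes did. In Restored, 2 were called lower (4.99%) and 2 higher (4.45%), and 9 and 3 members were separated (16.1% and 13.1%). Among 46 members, these counts of 2 called and of 9 separated, and the 3 called in Control, are near the shares of all tested genes. The 3 calls in Control became 1 without Type D line 1 or 3 or without Type V line 3, and the 4 calls in Restored became 2 without Type D line 1 or 3 or without Type V line 1. With the compared groups alone, which hold each line once, both counts were 0. The summed fibroblast markers given above also differ between the types in these libraries, and their part in the differences was not tested.

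The members called lower in Type D Control were Lamp2, Hexa and Tfe3. Lamp2, with the Control values given above, was the clearest, at -1.397 ± 0.26 (SE, adjusted p = 0.00116), and in Restored the difference was -0.902 ± 0.26 (SE, adjusted p = 0.0238). Tfe3 differed by -1.14 ± 0.299 (SE, adjusted p = 0.0155) in Control and -0.71 ± 0.299 (SE, adjusted p = 0.119) in Restored; its Control call was lost without Type D line 1 or 3 or Type V line 3 (-1.03, -1.08 and -0.93). Tfeb was lower below the fold threshold in both states, at -0.86 ± 0.23 (SE, adjusted p = 0.0155) and -0.84 ± 0.23 (SE, adjusted p = 0.0165), without overlap of the lines. Hexa was at 40.9, 38 and 27.9 TPM in Type D Control and 96.5, 56.2 and 106 TPM in Type V Control. It was at 79.2, 89.6 and 37.4 (Type D) and 132, 138 and 81.6 TPM (Type V) in Restored, with overlap. With CsA, Type D had 59.8, 54 and 28.9 TPM in Control and 128, 81.2 and 57.8 TPM in Restored, and Type V had 139.6, 82.3 and 141 TPM in Control and 175, 163 and 87.6 TPM in Restored. Its Control difference of -1.22 ± 0.39 (SE, adjusted p = 0.0451) was just past the threshold and was lost when any 1 line except Type V line 2 was left out (-1.33 to -1.05), with the line as a random block (adjusted p = 0.114), under both scalings, with no filter on low values and with the compared groups alone. Below 1 log2, Cd63, a tetraspanin (-0.92 ± 0.29, adjusted p = 0.0459, and 0.0831 with the random block), and Ids, the iduronate sulfatase (-0.85 ± 0.22, adjusted p = 0.0148), were lower and Scarb2 higher (0.57 ± 0.17, adjusted p = 0.0288).

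In Restored cells the sulfatases Arsb and Ids were lower in Type D. Arsb, which acts on dermatan sulfate, was at 31.7, 33.5 and 38.6 TPM in Type D and 90, 50.8 and 141 TPM in Type V, after 41.5, 41.1 and 44.4 (Type D) and 59.9, 45.2 and 90.4 TPM (Type V) in Control. With CsA it was at 36.7, 42.5 and 39.2 (Type D) and 68.6, 55.2 and 95.4 TPM (Type V) in Control and 30.9, 47 and 37.3 (Type D) and 90.1, 47.7 and 123 TPM (Type V) in Restored. Its difference in Restored was -1.3 ± 0.34 (SE, adjusted p = 0.0142), lost when any 1 line except Type V line 2 was left out (-1.38 to -0.95). Ids was at 33.9, 35.1 and 45.5 TPM in Type D Restored and 90.1, 63.9 and 114 TPM in Type V, after 47.5, 54.8 and 54.2 (Type D) and 93.6, 81 and 112 TPM (Type V) in Control. With CsA it was at 47.7, 55 and 47.4 (Type D) and 113, 96.5 and 103 TPM (Type V) in Control and 40, 47.5 and 50 (Type D) and 97.8, 63.2 and 129.5 TPM (Type V) in Restored. Ids differed by -1.18 ± 0.22 (SE, adjusted p = 0.00141), with each Type D library below each Type V library, and the call was lost without Type V line 3 (-0.99). Ctsl and Ctsc were higher in Type D Restored, at 1.52 ± 0.41 (SE, adjusted p = 0.0172) and 1.59 ± 0.42 (SE, adjusted p = 0.0146). Ctsl overlapped between the types in Control (0.33 ± 0.41) and was separated after restoration, and its call was lost without Type D line 1 or 3 or Type V line 1 (1.22, 1.59 and 1.22). Ctsc was separated in both states, with 1.26 ± 0.42 in Control (adjusted p = 0.0519, and 0.0164 with the random block) and, with CsA, 18.8, 37.9 and 31.9 TPM and then 14.3, 18.1 and 18.8 TPM in Type D Control and Restored against 4.84, 14.7 and 10.6 TPM and then 2.44, 6.59 and 3.44 TPM in Type V; its Restored call was lost without Type D line 2 or 3 (1.5 and 1.52). Below 1 log2, Gusb (-0.78 ± 0.26, adjusted p = 0.047) and Fuca1 (-0.57 ± 0.14, adjusted p = 0.0101, and 0.0535 with the random block) were lower in Type D Restored. Glb1 differed by -0.19 ± 0.195 in Control and -0.41 ± 0.195 in Restored (adjusted p = 0.565 and 0.166), with the Restored lines of Type D below those of Type V.

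Npc1 and Ctso, called with restoration in 1 type each, had like values with CsA. Npc1 was at 29.1, 17.4 and 20 TPM and then 59.5, 31.4 and 49.2 TPM in Type D Control + CsA and Restored + CsA and at 42.5, 23 and 28.6 TPM and then 36.9, 40.1 and 22.3 TPM in Type V. Ctso was at 3.42, 5.93 and 6.68 TPM and then 5.45, 7.53 and 7.17 TPM in Type D and 5.05, 5.13 and 6.52 TPM and then 10.9, 10.8 and 12.6 TPM in Type V. In Type D each line of Npc1 was higher with restoration under CsA (1.03 ± 0.33, adjusted p = 0.0623, and 0.000873 with the block), and in Type V each line of Ctso was (0.92 ± 0.29, adjusted p = 0.0624, and 9.87e-05 with the block). Ctsl in Type V was at 209.9, 174 and 499.5 TPM and then 239.5, 332 and 321 TPM, in both directions.

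**Figure D4:**
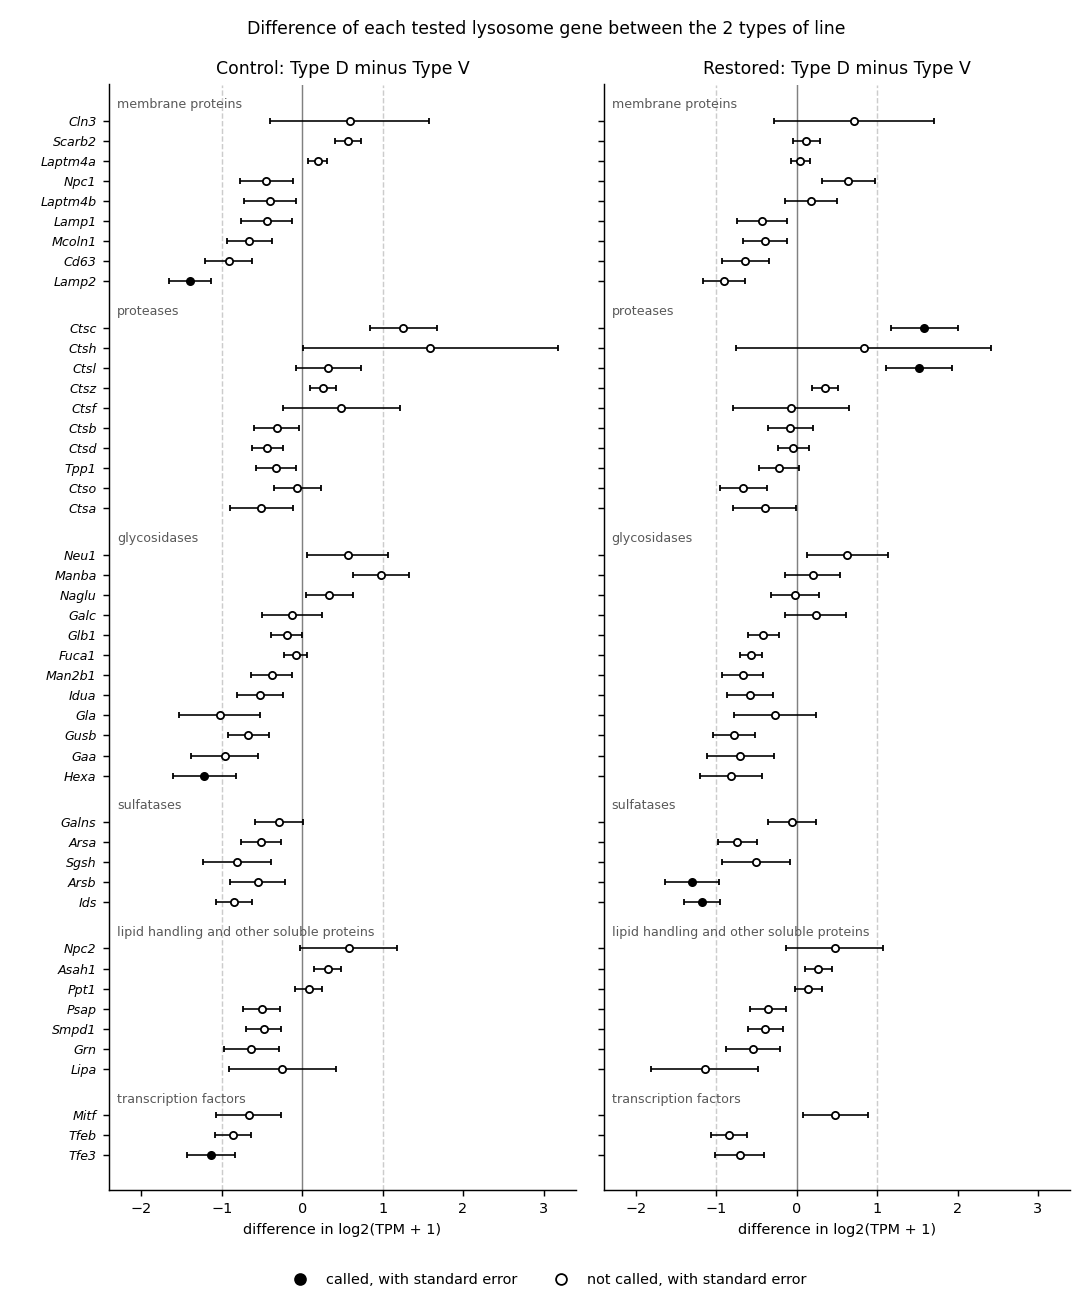
Difference of the 46 tested lysosome genes between Type D and Type V as log2(TPM + 1) (horizontal axis, Type D minus Type V), in Control and Restored cells, with the standard error of the fit; filled points were called and dashed lines mark 1 log2. Most points lie left of 0 in both panels, Lamp2, Hexa and Tfe3 are called lower in Control, and Ctsl and Ctsc are called higher in Restored.

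Other genes of the organelle were read from the same fit. With restoration, 4.49% of all tested genes were called higher and 2.44% lower in Type D, and 3.39% and 1.9% in Type V. Of 19 further lysosomal enzymes and membrane proteins, all tested, 3 were called higher with restoration in each type and 0 lower, with medians of 0.56 in Type D and 0.35 in Type V, close to those of the members. They were Cd68, a LAMP-like membrane protein (1.95 ± 0.29, adjusted p = 0.000134, and 1.28 ± 0.29, adjusted p = 0.00766), Aga, the aspartylglucosaminidase (1.86 ± 0.24, adjusted p = 2.05e-05, and 1.62 ± 0.24, adjusted p = 0.000145), and Man2b2, another acid mannosidase (1.09 ± 0.21, adjusted p = 0.00132, and 1.16 ± 0.21, adjusted p = 0.00101). Cd68 is also used as a macrophage marker. Of the macrophage markers above, Tyrobp, C1qa and C1qb were at 0 and Cd14 was at 19.3 to 355 TPM. Which cells the Cd68 transcript came from was not tested. With the block, 14 of the 19 rose in Type D (27.6% of all tested genes) and 10 in Type V (22.8%), and none fell (17.6% and 17.8%). Of 21 tested subunits of the V-ATPase, the proton pump of the lysosome, 1 was called higher in Type D, Tcirg1 (1.02 ± 0.298, adjusted p = 0.0292), and 1 lower, Atp6v1c2 (-1.59 ± 0.38, adjusted p = 0.00822), and none in Type V; the medians were 0.54 and 0.202. A count of 1 among these 21 is near the called shares of all tested genes. With the block, read against the same block shares as the 19, 15 rose and 1 fell in Type D, and 6 rose and 1 fell in Type V. None of the 9 genes of mannose 6-phosphate tagging and sorting, which send enzymes to the lysosome, was called in either type (1 higher in Type V with the block, against 5.74% of all tested genes), and the medians were 0.076 and -0.13. None of the 14 Rag and Ragulator genes, which hold mTORC1 at the lysosome, was called either, with medians of 0.303 and 0.043.

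Under CsA, restoration called 2 of the 19 further enzymes and membrane proteins higher in each type, Cd68 (1.96 ± 0.29, adjusted p = 0.000164, and 1.39 ± 0.29, adjusted p = 0.00437) and Aga (1.62 ± 0.24, adjusted p = 0.000113, and 1.27 ± 0.24, adjusted p = 0.00144). It called Tcirg1 (1.06 ± 0.298, adjusted p = 0.03) and Atp6v1a (1.04 ± 0.199, adjusted p = 0.00187) higher and Atp6v1c2 (-2.14 ± 0.38, adjusted p = 0.000891) lower in Type D. Of all tested genes, restoration under CsA called 3.53% higher and 1.88% lower in Type D, and 2.84% and 1.77% in Type V. For the types, 4.41% of all tested genes were called lower in Type D and 4.42% higher in Control, and 4.99% and 4.45% in Restored. Between the types in Control, 3 V-ATPase subunits were lower in Type D, namely Tcirg1 (-1.11 ± 0.298, adjusted p = 0.0178), Atp6ap1 (-1.07 ± 0.25, adjusted p = 0.00693) and Atp6v0d1 (-1 ± 0.23, adjusted p = 0.00693), as was the cystine transporter Ctns (-1.03 ± 0.31, adjusted p = 0.0316). Atp6v1c2, an isoform of the pump's C subunit, was higher in Type D in Control (3.54 ± 0.38, adjusted p = 3.91e-06) and in Restored (2.36 ± 0.38, adjusted p = 0.000319), where Lamtor4 of the Ragulator was lower (-1.25 ± 0.33, adjusted p = 0.0157).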

How the data were processed

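RNA of the 24 libraries was read by the authors with a stranded poly(A) protocol and single-end sequencing, and they deposited 1 table of TPM. The study's methods name Kallisto or HISAT2, the submitters' processing notes list HISAT2, mm10 and GRCm39, and which of these made the deposited TPM is not given in the sources used here. TPM sums to 1e+06 in each library, so depth and its precision are unknown, and a count test was not used. Values were taken as log2(TPM + 1). A gene was tested if it reached 1 TPM in at least 3 libraries. A model of the 8 groups over all 24 libraries was fitted with limma 3.58.1 (two-sided, eBayes with trend) under R 4.3.3, and p-values were adjusted by Benjamini-Hochberg over the 14104 tested genes in each of 14 comparisons. A call needed an adjusted p under 0.05 and at least 1 log2. The pseudocount of 1 makes the changes of low genes smaller than the ratio of TPM.

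Groups and lines came from the labels, and each library is 1 of the 6 lines under 1 treatment. Libraries of a line deviated together from their group means (r of 0.599 to 0.929 over 36 pairs, against -0.675 to 0.0438 over 72 pairs of other lines), so the line pairs the libraries. The study's methods name limma and state no block, so the fit without a block is the main one, and the fits with the line as a fixed block, or as a random block (r = 0.736) between types, are alternatives. Others were a pseudocount of 0.1, no filter, a minimum of 5 TPM, quantile normalization, median-ratio scaling, the compared groups alone, and each line left out. No 2 columns were identical. The fit was tested on simulated data.

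The members, the gene lists (V-ATPase, mannose 6-phosphate sorting, further lysosomal proteins, Rag and Ragulator, and markers) and the tests were chosen with earlier results of these data known. The neuroendocrine list is not reported in full here. Values in every library are given for Glb1, Lamp1, Lamp2, Tfeb, Tfe3, Mitf and each member called in at least 1 comparison, and members past the adjusted p alone are named with their change. Sgsh, Ctsh, Lipa, Gusb and other single members were named after their values were seen. Ctsd, Tpp1 and Fuca1 are also in a list the study drew from these libraries, so their direction is not independent of it. Promoter windows were read from a RefSeq table on GRCm38.p6 with Python 3.11.15. Figures were drawn with matplotlib 3.10.9.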

Additional observations from a re-analysis of the deposited data

Results flagged for a closer look

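With the cell line as a block, 7 lysosome genes responded differently to p53 restoration between the types (Type D change minus Type V change, limma, adjusted over all tested genes). Mitf (1.15, adjusted p = 0.0318), Npc1 (1.09, adjusted p = 0.0381) and Laptm4b (0.58, adjusted p = 0.0246) rose more in Type D. Lipa (-0.90, adjusted p = 0.0109), Manba (-0.78, adjusted p = 0.019), Arsb (-0.75, adjusted p = 0.0273) and Scarb2 (-0.45, adjusted p = 0.0315) rose more, or fell less, in Type V. Of all tested genes, 3.3% were past the same threshold toward Type D and 2.26% toward Type V. Under CsA, Laptm4b (0.60, adjusted p = 0.0199) and Gusb (0.46, adjusted p = 0.0262) rose more in Type D, 2 of 46 members where 3.06% of all tested genes did. Laptm4b is the member with such a difference both without and with CsA. The fit without the block gave an adjusted p of 1 for Npc1, and none of the differences passed there. Groups of 3 lines are too small for a test of single outlying libraries.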

How the results depend on the processing

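Over 13 other settings the calls of Tpp1 and Fuca1 with restoration moved least: in the 4 restoration comparisons they were lost in 1 case, Fuca1 in Type D under CsA with median-ratio scaling (0.999). Counts of called members that moved by over 1.5 times were 2, in place of 4, for restoration under CsA in Type D with median-ratio scaling, and, with the compared groups alone, 3 and 2 for restoration in Type D and Type V, 2 for restoration under CsA in Type V, and 0 for the types in Control and in Restored. With the cell line as a replicate block, which pairs the libraries, the counts were 8 for restoration under CsA in Type D and 2 for the difference of restoration, and no call of the unblocked fit was lost, while the random block between types lost Hexa in Control. Leaving out each line in turn gave 3 to 8 members called with restoration in Type D, 1 to 4 for the types in Control and 2 to 4 for the types in Restored. Glb1, called in no comparison, changed sign in 5 cases of a left-out line: without Type D line 2 in restoration in Type D (range over lines -0.195 to 0.042), without Type D line 2 or Type V line 1 in the difference of restoration under CsA (0.031 and 0.016, range -0.183 to 0.031), without Type V line 1 in CsA on Restored cells of Type V (-0.002), and without Type V line 3 in restoration under CsA in Type V (range -0.162 to 0.010). The cause of these moves was not tested. Scaling shifted the median of all genes by over 0.1 in 2 cases, restoration under CsA in Type D (-0.101, quantile normalization) and the types in Control (0.103, median-ratio scaling), where the member medians were 0.349 and -0.275 log2. Mitf did not reach 5 TPM in 3 libraries and has no value at that minimum. Depth is unknown, so genes near 1 TPM such as Mitf have no counting error here.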
